A study of Mus musculus with 9 samples.

Results

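Glucose is broken down to pyruvate by the enzymes of glycolysis, side-stepped into the pentose phosphate pathway to yield NADPH and ribose, or oxidised further in mitochondria by pyruvate dehydrogenase and the TCA cycle. The transcripts described here are 48 genes for enzymes of these pathways, chosen by gene name from the 39179 genes of the count table of mouse splenic dendritic cells (DC). They comprise 18 genes of glycolysis with lactate dehydrogenase, 4 genes for enzymes that make or remove fructose bisphosphates outside the main path (Pfkfb1, Pfkfb3, Pfkfb4 and Fbp1), 6 of the pyruvate dehydrogenase complex and its kinases, 7 of the pentose phosphate pathway, and 13 of the TCA cycle with the NADP-dependent isocitrate and the cytosolic malate dehydrogenases.

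DC at steady state from the spleens of C57BL/6J mice were sorted into CD8-positive conventional DC 1 (cDC1), CD8-negative conventional DC 2 (cDC2) and plasmacytoid DC (pDC). There were 3 libraries per subset, each from a pool of 15 to 17 mice, no library came from stimulated cells, and no group carried a transgene or treatment. The paper's results define the sorted subsets by CD11c, CD317, CD8 and CD11b, while its methods list CD11c, CD45RA, CD8, CD11b and CD49b for the sort. The sort followed a negative selection whose antibodies included CD3, Thy-1, Ly6G/Ly6C and TER-119. The mice were young adults by the study's methods, their sex was not given in the sources used here, and libraries with one number in all subsets bear 1 date code in the labels.

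In most cells many steps of these pathways can be run by several isoenzymes, products of different genes that catalyse the same reaction with different kinetics or regulation. Hexokinase traps glucose in the cell, phosphofructokinase commits it to glycolysis, and lactate dehydrogenase interconverts pyruvate and lactate. In DC, glycolysis is known for its increase after activation through Toll-like receptors, while the cells here were unstimulated. Transcript levels do not measure flux through a pathway.

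Counts on genes summed to between 15806597 and 32453789 per library, and replicate 3 was the shallowest library of each subset. A floor of 3 counts corresponded to between 0.0908 and 0.203 CPM (counts scaled to library size, here with TMM normalisation factors), and it covers counting error only. The labels were checked against sort and lineage markers. The 5 cDC1 markers summed to between 3100 and 3522 CPM in cDC1 libraries and to at most 648 CPM elsewhere, and the 5 pDC markers summed to between 10258 and 11319 CPM in pDC and to at most 214 CPM elsewhere. The 5 cDC2 markers summed to between 1541 and 1666 CPM in cDC2, to between 1071 and 1135 CPM in pDC and to at most 125 CPM in cDC1. Of these, Sirpa, Itgam and Clec4a4 were higher in cDC2 than in pDC. Cd209a and Mgl2 were higher in pDC, with means of 546 against 255 CPM and 27.4 against 6.27 CPM. Markers of neutrophils summed to at least 6.29 CPM and those of monocytes to between 9.55 and 63.1 CPM over all libraries, and both lists were lowest in replicate 2 of each subset. Markers of macrophages summed to between 53.1 and 349.8 CPM, those of NK cells to between 24.8 and 159.7 CPM and those of erythroid cells to between 33.2 and 63.5 CPM. Single genes carried some of these sums. In cDC1, Vcam1 and Hmox1 had means of 72.6 and 73.4 CPM, and the other macrophage markers had means of 6.81 to 9.68 CPM. Klrk1 had a mean of 123 CPM in cDC1, and the other NK cell markers had means of at most 8.47 CPM there. B cell markers summed to between 5.84 and 51.6 CPM, and Ms4a1 alone had a mean of 47.6 CPM in cDC1. T cell markers summed to at most 6.59 CPM in cDC1 and cDC2 and to between 54.4 and 69.6 CPM in pDC, where Cd28 alone had a mean of 59.1 CPM.

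Of the 48 genes, 47 passed the filter on low counts. The exception was Fbp1, the fructose-1,6-bisphosphatase of gluconeogenesis, which had no count in any cDC1 or cDC2 library and between 0 and 0.0605 CPM in pDC libraries, all under the floor. Among the 47, the mean level was highest in cDC1 for 25 genes, in cDC2 for 13 and in pDC for 9. In bulk samples such as these, fewer cells of a type and less RNA per cell cannot be told apart. A difference among the 3 subsets passed edgeR's quasi-likelihood test at an adjusted p of 0.05 (Benjamini-Hochberg over all genes tested) for 36 of the 47 enzyme genes (76.6%), beside 56.0% of the 13819 genes tested.

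**Figure D1:**
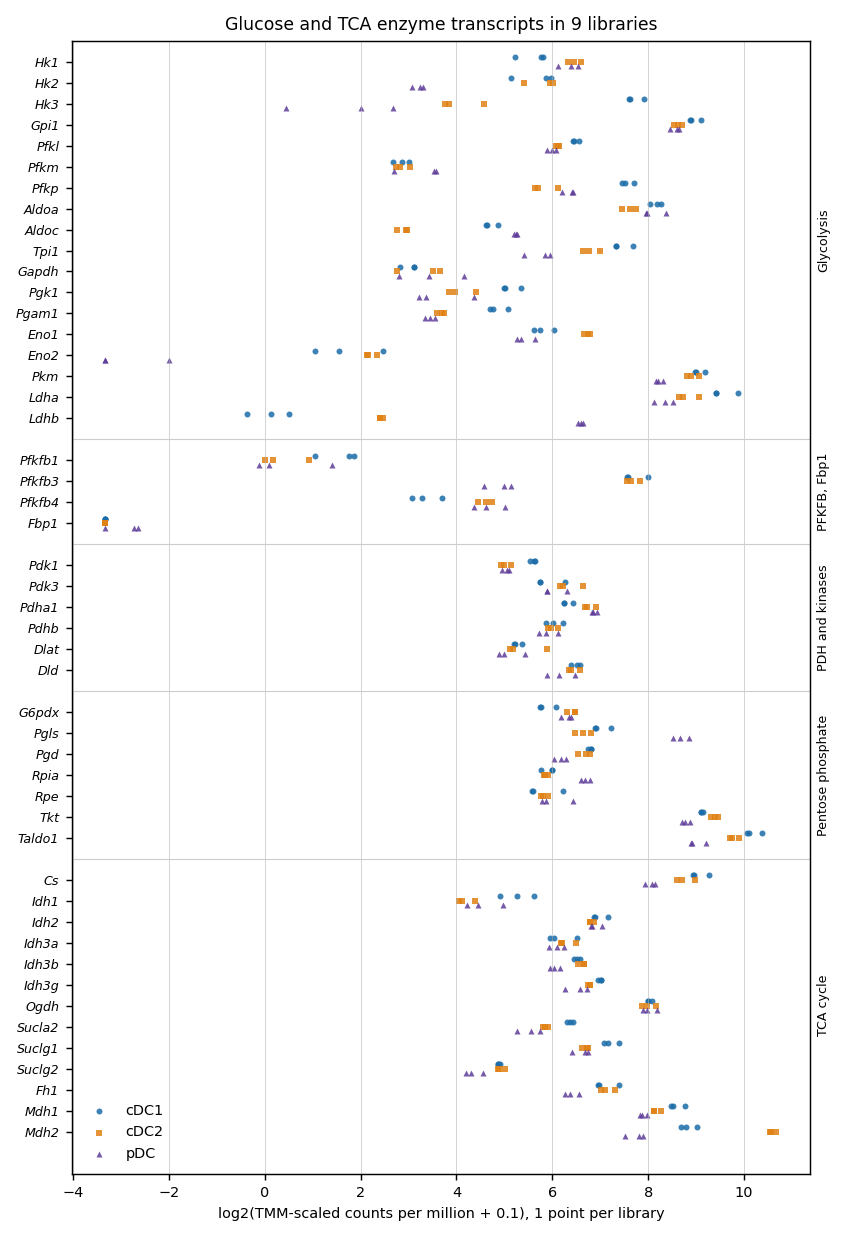
TMM-scaled CPM of all 48 enzyme genes on a log2 axis (CPM plus 0.1), with 1 point per library in cDC1 (circles), cDC2 (squares) and pDC (triangles). Wide separations are those of Ldhb, at 92.3 to 98.9 CPM in pDC and at most 5.42 CPM elsewhere, and of Hk3, at 194 to 242 CPM in cDC1 and at most 23.7 CPM elsewhere.

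Against cDC1, pDC had more of 8 and less of 27 enzyme transcripts, while 12 did not pass the test. Over all genes tested, 24.3% were higher and 24.4% lower in this comparison, so that lower enzyme genes (57.4%) exceeded the background and higher ones (17.0%) did not. The median log2 fold change was -0.46 over the enzyme genes and 0.02 over all genes. When a change of at least 1 on the log2 scale was also asked for, 14 of the 47 genes remained, 3 higher and 11 lower. In either direction this share was close to the background of 29.4%. With the replicate number as a block, 8 were higher (background 29.2%) and 28 lower (background 29.4%).

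Against cDC2, pDC had more of 6 and less of 16 enzyme transcripts, and 25 did not pass the test. The background was 22.5% higher and 23.3% lower, and the median log2 fold change was -0.23 over the enzyme genes against -0.01 over all genes. At a log2 change of at least 1 there were 10 of the 47 genes, 3 higher and 7 lower, a share in either direction under the background of 27.8%. Blocking on the replicate number gave 6 higher (background 27.1%) and 20 lower (background 28.4%).

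Between the conventional subsets, cDC2 had more of 8 and less of 16 enzyme transcripts than cDC1, and 23 did not pass. The background was 12.7% higher and 11.7% lower, and the medians were -0.06 over the enzyme genes and 0.03 over all genes. At a log2 change of at least 1 there were 9 genes, 3 higher and 6 lower (background in either direction 13.1%). With the block there were 9 higher (background 18.5%) and 18 lower (background 17.1%). The 16 lower genes became 9 when cDC2 replicate 1 was left out. The 3 comparisons share libraries, and their counts are not independent of each other.

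By pathway, the lower transcripts of pDC against cDC1 were 12 of 18 in glycolysis (66.7%) and 10 of 13 in the TCA cycle (76.9%). No TCA cycle transcript was higher. Of all genes tested, 24.4% were lower and 24.3% higher in this comparison. Glycolysis also held 3 higher transcripts (16.7%, under the background), and the pentose phosphate pathway was split, with 3 higher and 3 lower of 7 (42.9% each). Of the 6 genes of the pyruvate dehydrogenase complex and its kinases, 1 was higher and 1 lower (16.7% each, under the background). Against cDC2, pDC had 7 of 18 glycolytic (38.9%) and 5 of 13 TCA cycle transcripts (38.5%) lower, beside 23.3% of all genes. None of the 6 pyruvate dehydrogenase genes passed in either direction. Between cDC2 and cDC1, 10 of 18 glycolytic transcripts (55.6%) were lower in cDC2 and 3 (16.7%) higher, beside 11.7% and 12.7% of all genes.

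**Figure D2:**
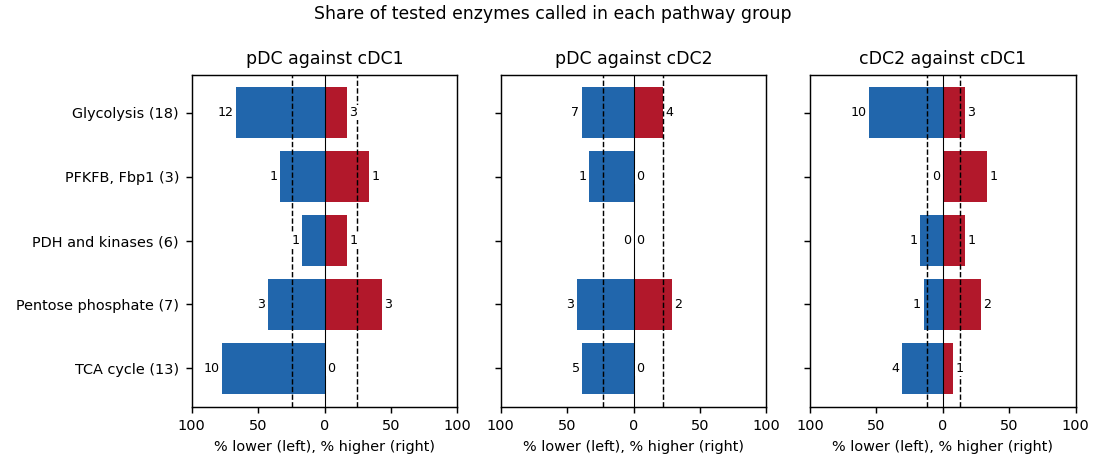
Share of tested genes in each pathway group that were lower (left bars) or higher (right bars) at an adjusted p of 0.05 in each comparison, with the number of genes at each bar and the number tested in parentheses. Dashed lines mark the share of all 13819 genes called in that direction, and the largest excess over them is that of lower TCA cycle genes in pDC against cDC1, at 76.9% beside 24.4%.

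Hexokinase, which phosphorylates glucose, drew on its isoenzymes in different proportions in the 3 subsets. Hk3 stood at 198, 194 and 242 CPM in cDC1, at 14.3, 13.4 and 23.7 CPM in cDC2, and at 3.90, 1.27 and 6.30 CPM in pDC. The 3 ranges did not overlap, and every difference passed the test. Its log2 fold change was -5.80 ± 0.48 (SE) in pDC against cDC1 (adjusted p = 6.79e-06, edgeR's quasi-likelihood test) and -3.63 ± 0.43 in cDC2 against cDC1 (adjusted p = 0.000214). The low level in pDC moved with markers of other myeloid cells, as pDC replicate 2 was lowest for Hk3, for the summed neutrophil markers (47.6, 6.29 and 60.5 CPM in replicates 1, 2 and 3), for the summed monocyte markers (35.4, 11.7 and 63.1 CPM) and for the summed macrophage markers (162, 53.1 and 186 CPM). Among the cDC1 markers, Xcr1 was also lowest in pDC replicate 2 (8.90, 1.37 and 3.65 CPM), as were Cd8a and Batf3, whereas Clec9a and Itgae were not. In cDC2, Xcr1 stood at 33.5, 64.9 and 50.5 CPM, beside 929, 933 and 947 CPM in cDC1. The part of cDC1 and of the other myeloid cells in the Hk3 counts of pDC and cDC2 was not tested. In cDC1, where Hk3 was high, the neutrophil markers summed to between 6.80 and 37.5 CPM.

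Hk2, the inducible hexokinase, was at 58.4, 62.3 and 34.9 CPM in cDC1, 62.1, 64.3 and 42.4 CPM in cDC2 and 9.38, 8.26 and 9.78 CPM in pDC. All pDC libraries lay far under the others, whereas the conventional subsets overlapped. The log2 fold change of Hk2 was -2.51 ± 0.25 in pDC against cDC1 (adjusted p = 2.01e-05) and -2.62 ± 0.25 against cDC2 (adjusted p = 1.71e-05). Hk1, the widely expressed form, behaved otherwise, with 56.2, 54.1 and 37.2 CPM in cDC1, 96.7, 88.0 and 80.2 CPM in cDC2 and 92.2, 83.8 and 69.8 CPM in pDC. Hk1 was thus lowest in cDC1, by 1.66-fold against pDC (adjusted p = 0.00571) and 1.79-fold against cDC2 (adjusted p = 0.00570), and the ranges of cDC2 and pDC overlapped.

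Levels of different genes were compared per kilobase of annotated exon. On this scale the 3 hexokinases summed to 71.8 ± 3.66 CPM per kb (SD, n = 3) in cDC1, 24.4 ± 1.37 in cDC2 and 12.2 ± 1.09 in pDC. Hk3 made up 79.7% ± 5.98 of the sum in cDC1, and Hk1 made up 78.8% ± 7.18 in pDC. With these lengths no isoenzyme held most of the sum in cDC2, with 42.3% ± 1.72 from Hk1, 38.4% ± 6.60 from Hk2 and 19.3% ± 7.58 from Hk3. The lengths matter for such shares: with the length of the principal transcript in place of all exons, Hk1 in cDC2 came to 59.5%. Shares are given as a description, without a test.

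Phosphofructokinase, the committed step of glycolysis, was represented mainly by Pfkl (liver type) and Pfkp (platelet type). Pfkp was at 175, 182 and 207 CPM in cDC1, 49.98, 51.7 and 69.4 CPM in cDC2 and 85.5, 86.1 and 73.8 CPM in pDC. No ranges overlapped, and Pfkp was lower in cDC2 than in cDC1 by a log2 fold change of -1.72 ± 0.15 (adjusted p = 3.14e-05) and lower in pDC than in cDC1 by -1.20 ± 0.15 (adjusted p = 9.12e-05). Pfkp of pDC exceeded that of cDC2 by 1.44-fold (adjusted p = 0.0144), a call that was lost without cDC2 replicate 1 or replicate 2. Pfkl varied less, with 88.0, 86.5 and 93.9 CPM in cDC1, 68.9, 67.7 and 69.9 CPM in cDC2 and 63.4, 58.8 and 67.0 CPM in pDC. Pfkl was highest in cDC1 (-0.50 ± 0.09 in pDC, adjusted p = 0.00155, and -0.38 ± 0.09 in cDC2, adjusted p = 0.0154, the latter lost without cDC2 replicate 1), and its small difference between pDC and cDC2 did not pass (adjusted p = 0.312). Pfkm (muscle type) lay between 6.26 and 11.7 CPM in all libraries and passed in no comparison.

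The share of Pfkp per kilobase was 47.4% ± 1.29 in cDC1, 33.0% ± 1.44 in pDC and 25.3% ± 2.96 in cDC2. Which of Pfkl and Pfkp led within pDC depended on the length used, since with principal transcripts Pfkp came to 49.2% there and Pfkl to 42.3%, against 33.0% and 51.3% with all exons. The order of the 3 subsets was the same under both lengths.

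The PFKFB enzymes make and degrade fructose 2,6-bisphosphate, the allosteric activator of phosphofructokinase. Pfkfb3, whose product favours synthesis of the activator, was at 256, 191 and 188 CPM in cDC1, 226, 199 and 189 CPM in cDC2 and only 31.8, 23.7 and 35.0 CPM in pDC. The pDC libraries were clear of all others and the conventional subsets overlapped. Its log2 fold change was -2.81 ± 0.18 in pDC against cDC1 (adjusted p = 1.34e-06) and -2.76 ± 0.18 against cDC2 (adjusted p = 1.56e-06).

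Pfkfb4 showed another order, with 8.27, 9.59 and 12.9 CPM in cDC1, 24.3, 26.6 and 21.8 CPM in cDC2 and 20.6, 24.6 and 32.3 CPM in pDC. It was lowest in cDC1 and overlapped between the other subsets, with a log2 fold change of 1.34 ± 0.22 in pDC against cDC1 (adjusted p = 0.000623) and 1.25 ± 0.22 in cDC2 against cDC1 (adjusted p = 0.00223). Per kilobase, Pfkfb3 made up 90.6% ± 2.22 of Pfkfb1, Pfkfb3 and Pfkfb4 in cDC1, 83.7% ± 1.79 in cDC2 and 41.6% ± 6.20 in pDC, where Pfkfb4 held 54.9% ± 5.54. With principal transcripts the means in pDC were 44.5% for Pfkfb3 and 50.2% for Pfkfb4, and Pfkfb3 led in replicate 1 (51.9% against 44.6%). Pfkfb2 was outside this sum, with means of 17.0 CPM in pDC, 7.74 in cDC1 and 6.61 in cDC2. Pfkfb1 lay between 0.817 and 3.54 CPM and passed in no comparison.

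**Figure D3:**
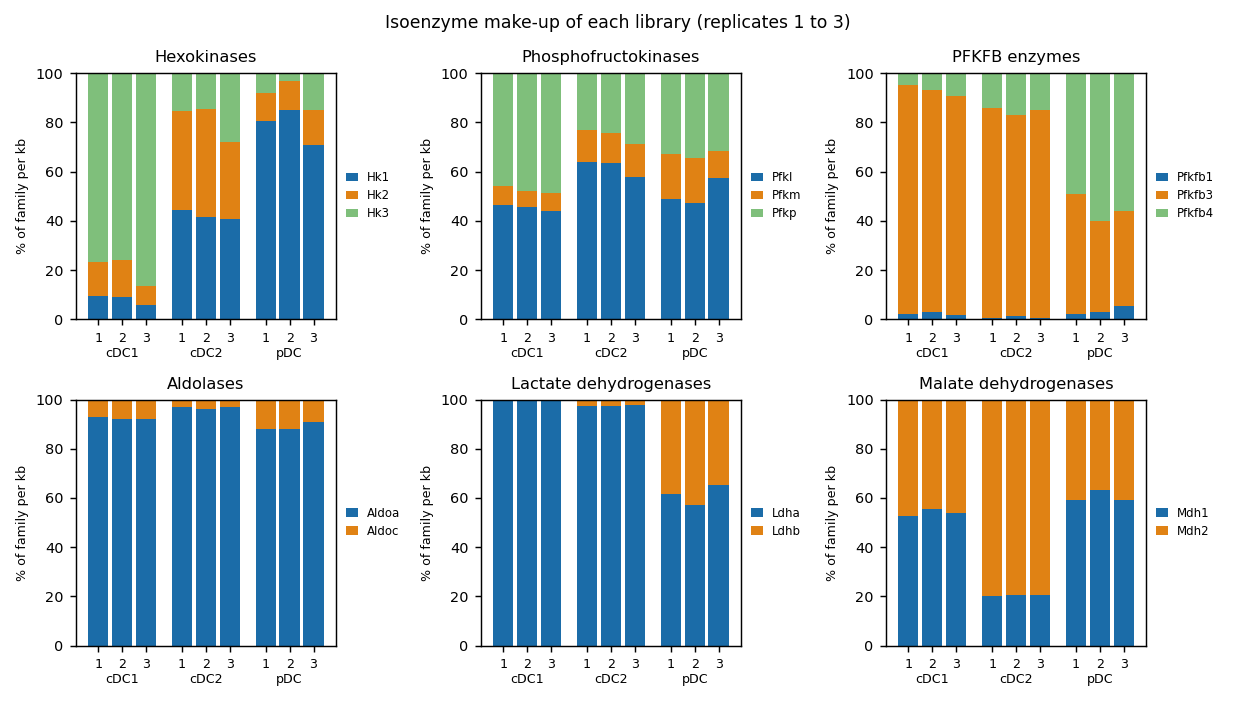
Share of each isoenzyme in the summed CPM per kb of exon of the genes shown for its family, in percent, for replicates 1, 2 and 3 of each subset in 6 enzyme families. Hk3 holds 75.8% to 86.6% of the hexokinases in cDC1 libraries, Ldhb holds 34.8% to 43.0% of the lactate dehydrogenases in pDC libraries, and Mdh2 holds 79.3% to 79.7% of the malate dehydrogenases in cDC2 libraries.

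Aldolase splits fructose bisphosphate into triose phosphates. Aldoc, the brain type, was at 25.0, 24.5 and 29.1 CPM in cDC1, 6.63, 7.60 and 7.76 CPM in cDC2 and 38.1, 37.9 and 36.6 CPM in pDC, with no overlap. It was lower in cDC2 than in either other subset, with log2 fold changes of -1.84 ± 0.13 against cDC1 (adjusted p = 1.11e-05) and 2.36 ± 0.13 in pDC against cDC2 (adjusted p = 5.85e-07). Aldoa, the ubiquitous form, was at 291, 261 and 309.5 CPM in cDC1, 196, 176 and 215 CPM in cDC2 and 249.95, 246 and 330.3 CPM in pDC. Its level was likewise lowest in cDC2, by -0.55 ± 0.14 against cDC1 (adjusted p = 0.0151, lost without cDC2 replicate 1 or 2) and with 0.49 ± 0.14 in pDC against it (adjusted p = 0.0145, lost without cDC2 replicate 2), and its values in cDC1 and pDC overlapped (adjusted p = 0.749). Aldoa made up between 87.9% and 97.1% of both aldolases per kilobase in every library.

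Gpi1, which isomerises glucose phosphate to fructose phosphate, had a log2 fold change of -0.39 ± 0.10 in pDC against cDC1 (adjusted p = 0.00897). Its lower level in cDC2 against cDC1, at -0.33 ± 0.10, passed in 9 of 18 alternative fits and was lost without any one cDC1 library, cDC2 replicate 1 or 2, or pDC replicate 1. Tpi1, triose phosphate isomerase, followed the order cDC1, cDC2, pDC, with 161, 160.1 and 204 CPM, 109, 100.02 and 127 CPM, and 57.4, 42.4 and 61.6 CPM. None of its ranges overlapped, and the log2 fold change was -1.70 ± 0.17 in pDC against cDC1 (adjusted p = 2.32e-05) and -1.05 ± 0.17 against cDC2 (adjusted p = 0.000595). That in cDC2 against cDC1, at -0.65 ± 0.17 (adjusted p = 0.0178), was lost without cDC1 replicate 3 or cDC2 replicate 1 or 2.

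The next steps of glycolysis are run by gene products whose transcripts are close copies of pseudogenes, and their counts are uncertain. Of the windows of 75 bases (the read length) in the principal transcript, 80.3% recur in another gene for Gapdh, 67.5% for Pgk1, 65.4% for Eno1 and 40.6% for Pgam1. Gapdh, glyceraldehyde phosphate dehydrogenase, was counted at only 8.60, 8.51 and 6.97 CPM in cDC1, 11.2, 12.5 and 6.70 CPM in cDC2 and 10.7, 17.8 and 6.83 CPM in pDC. The subsets overlapped, replicate 3 was lowest in each, and no comparison passed, so that nothing can be said here of the level of Gapdh RNA.

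Pgk1, phosphoglycerate kinase, was at 31.8, 32.2 and 40.6 CPM in cDC1, 14.2, 15.6 and 21.2 CPM in cDC2 and 10.2, 9.22 and 20.6 CPM in pDC. It was highest in cDC1 and overlapped between cDC2 and pDC, with a log2 fold change of -1.39 ± 0.30 in pDC against cDC1 (adjusted p = 0.00357) and -1.04 ± 0.30 in cDC2 against cDC1 (adjusted p = 0.0298, lost without any one cDC1 library or cDC2 replicate 1 or 2). Pgam1, phosphoglycerate mutase, took the same order, at 26.9, 25.8 and 33.4 CPM, 12.9, 13.3 and 12.0 CPM, and 11.7, 10.1 and 10.8 CPM. Its log2 fold change was -1.40 ± 0.15 in pDC against cDC1 (adjusted p = 4.09e-05) and -1.17 ± 0.15 in cDC2 against cDC1 (adjusted p = 0.000351).

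Pgam1 was accompanied in pDC by its muscle paralog Pgam2, one of the other pathway genes examined. Pgam2 was at 57.7, 53.3 and 84.5 CPM in pDC and at no more than 1.29 CPM in any other library, a log2 fold change of 7.36 ± 0.80 against cDC1 (adjusted p = 4.26e-05) and 6.85 ± 0.76 against cDC2 (adjusted p = 5.36e-05). Per kilobase, Pgam2 made up 93.2% ± 1.49 of both mutases in pDC, beside 3.33% ± 4.36 in cDC1 and 9.998% ± 8.48 in cDC2. The summed level of both genes was 83.0 ± 20.2 CPM per kb in pDC, 15.1 ± 2.88 in cDC1 and 7.15 ± 0.296 in cDC2, so that pDC, lowest for Pgam1, was highest for the sum. These family values were computed after Pgam2 had been seen.

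Enolase forms phosphoenolpyruvate. Eno1, the ubiquitous form, was at 53.7, 49.2 and 65.5 CPM in cDC1, 111, 101 and 107 CPM in cDC2 and 40.5, 38.2 and 49.96 CPM in pDC. All cDC2 libraries were above the rest, by a log2 fold change of 0.92 ± 0.14 against cDC1 (adjusted p = 0.00107), and pDC was lower than cDC2 by -1.31 ± 0.14 (adjusted p = 4.81e-05). Its smaller difference between pDC and cDC1, at -0.39 ± 0.14 (adjusted p = 0.0448), passed in 8 of 18 alternatives, was lost without cDC1 replicate 1 or 3, cDC2 replicate 1 or pDC replicate 1 or 2, and had overlapping ranges. Eno3, the muscle enolase and one of the other pathway genes, shares no window of 75 bases with another gene and had 191, 145 and 202 CPM in cDC2, 64.2, 43.3 and 53.8 CPM in cDC1 and 11.3, 10.5 and 12.9 CPM in pDC. It thus followed the same order as Eno1, with a log2 fold change of -3.95 ± 0.20 in pDC against cDC2 (adjusted p = 2.64e-07).

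Eno2, the neuronal enolase, was a low transcript at 5.43, 2.84 and 1.96 CPM in cDC1 and 4.94, 4.38 and 4.31 CPM in cDC2, and pDC held 5 counts in all, from replicate 1. The ratio to pDC was 51.8 for cDC1 (95% exact counting interval 21.9 to 161) and 63.9 for cDC2 (27.1 to 198), intervals that cover counting error only and not the spread between libraries. Both differences passed the test (adjusted p = 0.000275 and 0.000192, respectively), and the conventional subsets overlapped.

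Pyruvate kinase and lactate dehydrogenase close the path. Pkm, the pyruvate kinase of most tissues, was lower in pDC by a log2 fold change of -0.82 ± 0.10 against cDC1 (adjusted p = 9.70e-05) and -0.70 ± 0.10 against cDC2 (adjusted p = 0.000318). Its levels in cDC1 and cDC2 overlapped. Ldha, the lactate dehydrogenase subunit typical of glycolytic tissue, was at 682, 678 and 931 CPM in cDC1, 424, 401 and 531 CPM in cDC2 and 329, 277 and 365 CPM in pDC. No ranges overlapped, and replicate 3 was highest in every subset. The log2 fold change of Ldha was -1.24 ± 0.17 in pDC against cDC1 (adjusted p = 0.000190) and -0.76 ± 0.17 in cDC2 against cDC1 (adjusted p = 0.00809), while that of -0.48 ± 0.17 in pDC against cDC2 (adjusted p = 0.0376) was lost without cDC2 replicate 1 or 3 or pDC replicate 1 or 2.

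Ldhb, the subunit typical of heart and other oxidative tissue, ran in the opposite direction. It was at 1.31, 1.00 and 0.677 CPM in cDC1, 5.16, 5.18 and 5.42 CPM in cDC2 and 97.4, 98.9 and 92.3 CPM in pDC. The ranges were far apart, with a log2 fold change of 6.53 ± 0.20 in pDC against cDC1 (adjusted p = 3.35e-08), 4.19 ± 0.17 in pDC against cDC2 (adjusted p = 1.13e-07) and 2.34 ± 0.19 in cDC2 against cDC1 (adjusted p = 2.18e-05). Per kilobase it made up 38.7% ± 4.12 of both subunits in pDC, 2.42% ± 0.281 in cDC2 and 0.289% ± 0.127 in cDC1. With principal transcript lengths the share in pDC was 28.9%, and with windows of sequence shared with no other gene it was 42.8%. Summed over both subunits, the level was 231 ± 43.7 CPM per kb in cDC1, 139.8 ± 21.02 in cDC2 and 159 ± 11.4 in pDC, and the ranges of cDC2 and pDC, apart for Ldha, overlapped for the sum.

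**Figure D4:**
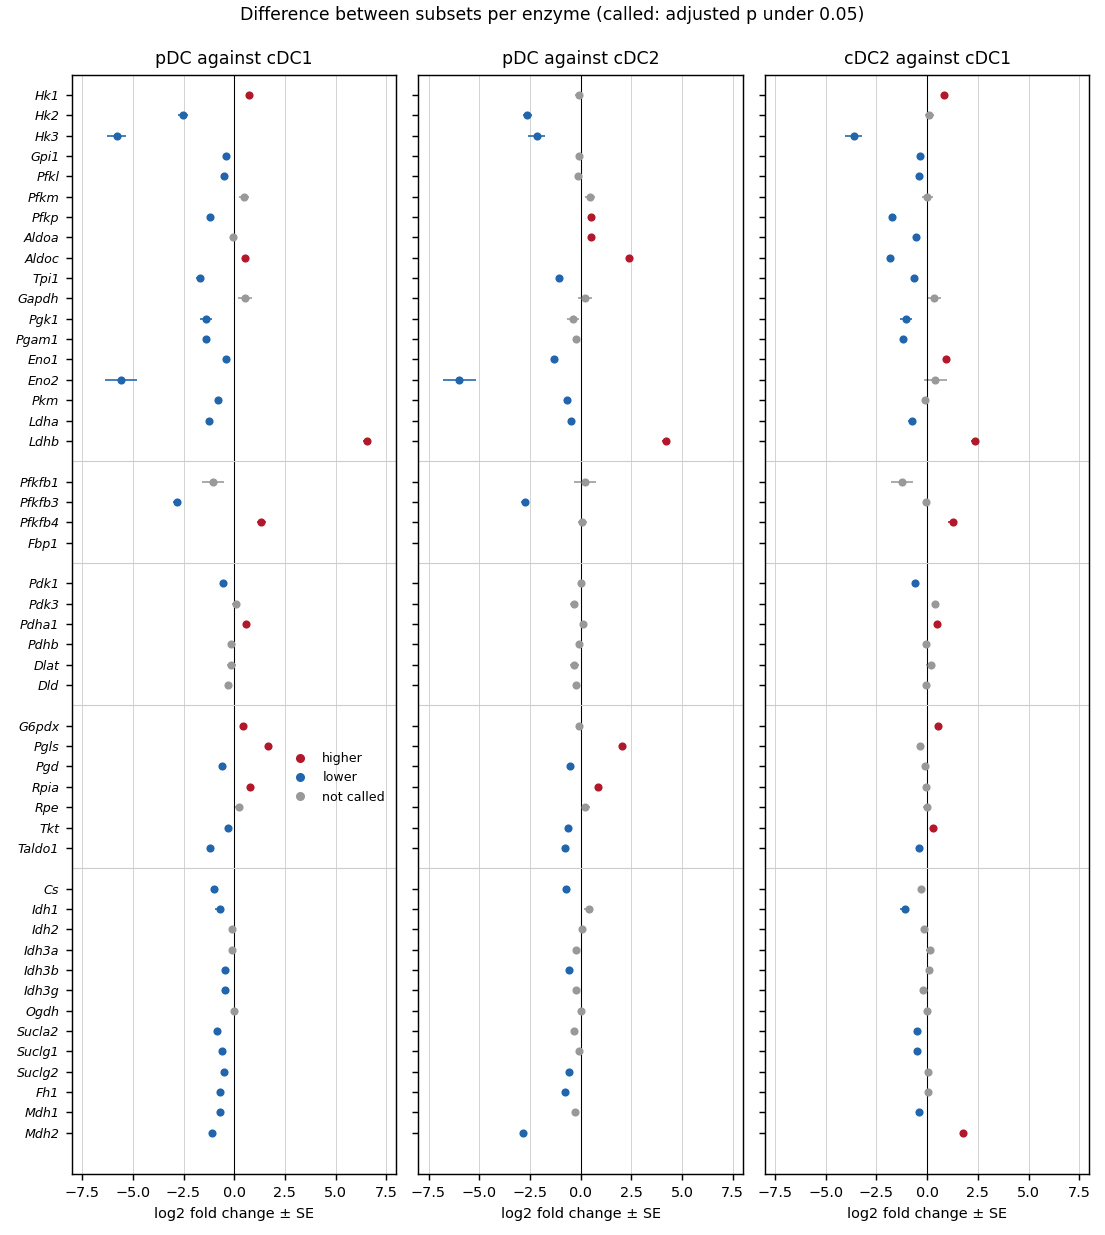
Log2 fold change with its standard error for each enzyme gene in the comparisons of pDC with each conventional subset and of cDC2 with cDC1, in the order of the pathways, coloured by the call at an adjusted p of 0.05. The TCA cycle genes lie at or under 0 in pDC against cDC1, and Ldhb reaches 6.53, 4.19 and 2.34.

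Pyruvate enters the mitochondrion and is oxidised to acetyl-CoA by the pyruvate dehydrogenase complex, which kinases of the PDK family switch off. Pdha1, the catalytic alpha subunit, was at 75.6, 75.7 and 85.7 CPM in cDC1, 103, 106 and 120.02 CPM in cDC2 and 114, 115 and 122 CPM in pDC, and was thus lowest in cDC1 in every library. Its log2 fold change was 0.57 ± 0.10 in pDC against cDC1 (adjusted p = 0.00129) and 0.47 ± 0.10 in cDC2 against cDC1 (adjusted p = 0.00781). Pdhb, the beta subunit, and Dlat, the acetyltransferase core, passed in no comparison, with log2 fold changes between -0.32 and 0.18. Dld, the dihydrolipoamide dehydrogenase shared with other complexes, did not pass but did so with the replicate block, at -0.32 in pDC against cDC1 (adjusted p = 0.0142) and -0.26 against cDC2 (adjusted p = 0.0357), and in both comparisons without pDC replicate 3.

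Pdk1 was at 49.5, 48.8 and 46.5 CPM in cDC1, 30.2, 34.9 and 31.8 CPM in cDC2 and 34.2, 33.1 and 31.0 CPM in pDC. It was highest in cDC1, by 1.47-fold against pDC (adjusted p = 0.00159) and 1.49-fold against cDC2 (adjusted p = 0.00286), and did not separate cDC2 from pDC. Pdk3 was at 53.6, 53.6 and 77.1 CPM in cDC1, 74.9, 71.0 and 99.2 CPM in cDC2 and 59.2, 59.0 and 79.3 CPM in pDC, with replicate 3 highest in each subset. Its difference of 0.41 ± 0.20 between cDC2 and cDC1 did not pass (adjusted p = 0.171) and passed once the replicate number was blocked (0.42, adjusted p = 0.00151), as did that of -0.31 in pDC against cDC2 (adjusted p = 0.00436 with the block). Pdk3 made up 79.0% ± 3.82 of Pdk1 and Pdk3 together per kilobase in cDC1, 88.3% ± 2.18 in cDC2 and 85.7% ± 2.54 in pDC. Pdk2 was outside this sum, with means of 24.7 CPM in pDC, 7.25 in cDC1 and 9.81 in cDC2.

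In the pentose phosphate pathway the oxidative steps yield NADPH and the others rearrange sugars. Pgls, the lactonase of the oxidative branch, was at 121, 118 and 149.8 CPM in cDC1, 99.4, 88.6 and 112 CPM in cDC2 and 368, 405 and 463 CPM in pDC. Every pDC library exceeded every other, with a log2 fold change of 1.67 ± 0.14 against cDC1 (adjusted p = 7.21e-06) and 2.04 ± 0.14 against cDC2 (adjusted p = 2.29e-06). Of the exon bases of Pgls, 20.6% are also exon of Fam129c, whose own level was 20.1 ± 3.62 CPM in pDC, 3.81 ± 0.422 in cDC2 and 1.81 ± 0.715 in cDC1, and its part in the Pgls counts was not tested. Between cDC2 and cDC1 Pgls did not pass (-0.37 ± 0.14, adjusted p = 0.0794) and passed with the block (adjusted p = 0.00355) and without cDC2 replicate 3.

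The 2 dehydrogenases on either side of Pgls did not share this pattern. G6pdx, glucose-6-phosphate dehydrogenase and the entry enzyme, was lowest in cDC1, by 1.36-fold against pDC (adjusted p = 0.0134, lost without cDC1 replicate 1 or 2) and 1.46-fold against cDC2 (adjusted p = 0.00954), although 13.6% of its exon bases overlap Ikbkg. Pgd, phosphogluconate dehydrogenase, was lowest in pDC, with a log2 fold change of -0.62 ± 0.11 against cDC1 (adjusted p = 0.000950) and -0.51 ± 0.11 against cDC2 (adjusted p = 0.00312). Thus the 3 oxidative genes took 3 different orders across the subsets.

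Of the non-oxidative genes, Rpia, ribose phosphate isomerase, was at 63.6, 63.1 and 54.4 CPM in cDC1, 60.2, 56.6 and 57.2 CPM in cDC2 and 110.1, 102 and 96.8 CPM in pDC. It was highest in pDC, by 1.71-fold against cDC1 (adjusted p = 0.000189) and 1.78-fold against cDC2 (adjusted p = 0.000126). Rpe, the epimerase, passed in no comparison, and 17.9% of its exon bases overlap Kansl1l. Taldo1, transaldolase, had the highest level per kilobase of all exons among the enzyme genes in cDC1 (535 CPM per kb), and was at 1064, 1099 and 1321 CPM in cDC1, 857, 834 and 951 CPM in cDC2 and 476, 480.1 and 586 CPM in pDC. The ranges did not overlap, with a log2 fold change of -1.18 ± 0.12 in pDC against cDC1 (adjusted p = 3.02e-05) and -0.78 ± 0.12 against cDC2 (adjusted p = 0.000529), and the difference of -0.40 ± 0.12 in cDC2 against cDC1 (adjusted p = 0.0371) was lost without cDC1 replicate 2 or 3 or cDC2 replicate 1 or 2. Tkt, transketolase, was lowest in pDC, by 1.26-fold against cDC1 (adjusted p = 0.00830) and 1.52-fold against cDC2 (adjusted p = 0.000221), and its small excess in cDC2 over cDC1 (0.28 ± 0.08, adjusted p = 0.0346) passed in 7 of 18 alternatives and was lost without any one library except pDC replicate 3.

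Within the TCA cycle group, all genes that passed in a comparison of pDC with a conventional subset were lower in pDC. This did not hold for the other TCA cycle and linked genes tested. Of those, 1 was higher (7.69%) and 4 lower (30.8%) in pDC against cDC1, and 5 higher (38.5%) and 2 lower (15.4%) against cDC2. Over all genes, 24.3% were higher and 24.4% lower against cDC1, and 22.5% and 23.3% against cDC2. The 13 genes of the group summed to 1599 ± 125 CPM in pDC, 2494 ± 241 in cDC1 and 3272 ± 214 in cDC2. The higher sum in cDC2 came with Mdh2, the mitochondrial malate dehydrogenase, at 1513, 1482 and 1632 CPM in cDC2, 441, 412 and 517 CPM in cDC1 and 224, 183 and 239 CPM in pDC. The 3 ranges were wide apart, and Mdh2 had a log2 fold change of 1.76 ± 0.13 in cDC2 against cDC1 (adjusted p = 1.12e-05), -1.08 ± 0.12 in pDC against cDC1 (adjusted p = 6.19e-05) and -2.84 ± 0.13 in pDC against cDC2 (adjusted p = 1.96e-07). It was the only gene of the 13 in the group that passed as higher in cDC2 than in cDC1 in this fit, and none of its windows of 75 bases recurs in another gene.

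Mdh1, the cytosolic malate dehydrogenase, did not follow Mdh2. It was at 355, 369 and 437 CPM in cDC1, 278, 279 and 308 CPM in cDC2 and 234, 229 and 250.5 CPM in pDC, with no overlap. Its log2 fold change was -0.70 ± 0.10 in pDC against cDC1 (adjusted p = 0.000356) and -0.43 ± 0.10 in cDC2 against cDC1 (adjusted p = 0.0143, lost without cDC2 replicate 1), and that of -0.28 ± 0.10 in pDC against cDC2 did not pass (adjusted p = 0.0529) but passed in 7 of 18 alternatives, the replicate block among them (adjusted p = 0.00402). Per kilobase Mdh2 made up 79.4% ± 0.222 of both in cDC2, 46.0% ± 1.31 in cDC1 and 39.4% ± 2.43 in pDC. Which isoenzyme led in cDC1 and pDC depended on the length used, as Mdh2 came to 63.2% and 56.8% there with principal transcripts.

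Cs, citrate synthase and the entry to the cycle, had a log2 fold change of -0.998 ± 0.132 in pDC against cDC1 (adjusted p = 0.000166) and -0.70 ± 0.13 against cDC2 (adjusted p = 0.00167). In cDC2 against cDC1 it did not pass (-0.29 ± 0.13, adjusted p = 0.143) but passed with the block (-0.30, adjusted p = 0.00727) and without cDC2 replicate 3. Fh1, fumarase, was lower in pDC by similar amounts against both, at -0.72 ± 0.15 (adjusted p = 0.00248) and -0.75 ± 0.15 (adjusted p = 0.00208). Ogdh, the first subunit of the oxoglutarate dehydrogenase complex, lay between 233 and 292 CPM in all 9 libraries, with log2 fold changes between -0.02 and 0.02 and SEs of 0.11, and passed in no comparison.

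Isocitrate dehydrogenase exists in forms that use NAD or NADP. The NAD-dependent complex of Idh3a, Idh3b and Idh3g had Idh3b lower in pDC against both (log2 fold change -0.46 ± 0.10 and -0.57 ± 0.10, adjusted p = 0.00307 and 0.00100) and Idh3g lower against cDC1 (-0.46 ± 0.12, adjusted p = 0.0105), while Idh3a passed nowhere. Idh2, the NADP-dependent mitochondrial form, was at 116, 119 and 143 CPM in cDC1, 111, 110.1 and 117 CPM in cDC2 and 114, 112 and 131 CPM in pDC, and passed nowhere. Idh1, its cytosolic counterpart, was at 48.7, 38.5 and 30.1 CPM in cDC1, 20.8, 17.2 and 16.5 CPM in cDC2 and 21.8, 18.6 and 31.4 CPM in pDC. Idh1 was lower in cDC2 than in cDC1 (-1.11 ± 0.23, adjusted p = 0.00641), and its overlapping difference between pDC and cDC1 (-0.71 ± 0.23, adjusted p = 0.0273) was lost without cDC1 replicate 1 or 2 or pDC replicate 1 or 2.

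Succinyl-CoA synthetase pairs the shared alpha subunit Suclg1 with the ATP-forming Sucla2 or the GTP-forming Suclg2. All 3 were lower in pDC than in cDC1, with log2 fold changes of -0.60 ± 0.12 for Suclg1 (adjusted p = 0.00248), -0.84 ± 0.13 for Sucla2 (adjusted p = 0.000386) and -0.53 ± 0.13 for Suclg2 (adjusted p = 0.00684). The levels of Sucla2 were 82.1, 79.3 and 86.8 CPM in cDC1, 59.7, 56.0 and 57.7 CPM in cDC2 and 47.2, 38.6 and 53.2 CPM in pDC, without overlap. Suclg2 was at 29.7, 29.1 and 29.2 CPM in cDC1, 32.4, 29.3 and 28.9 CPM in cDC2 and 19.6, 18.2 and 23.3 CPM in pDC, so that the conventional subsets overlapped. Against cDC2, Suclg2 was lower in pDC (-0.57 ± 0.13, adjusted p = 0.00477), and Sucla2 (-0.32 ± 0.13, adjusted p = 0.0626) passed in 4 of 18 alternatives, the block among them (adjusted p = 0.0147), and without pDC replicate 3.

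The 3 sorts, numbered alike across subsets, also differed. Against sorts 1 and 2, sort 3 had 18 of the 47 enzyme genes higher and 2 lower in the fit with subset and sort, beside 10.9% higher and 12.1% lower of all genes. The median log2 difference was 0.16 over the enzyme genes and -0.01 over all genes. At an adjusted p of 0.01, 3 were left, Pdk3 at 0.46 ± 0.06 (adjusted p = 0.00113), Ldha at 0.36 ± 0.06 (adjusted p = 0.00300) and Taldo1 at 0.25 ± 0.05 (adjusted p = 0.00611), while the larger differences of Hk3 (0.66 ± 0.21) and Pgk1 (0.64 ± 0.14) had adjusted p-values of 0.0499 and 0.0136. The lower ones were Hk1 (-0.36 ± 0.08, adjusted p = 0.0122) and Gapdh (-0.72 ± 0.20, adjusted p = 0.0341). The counts of Gapdh and Pgk1 are uncertain because of shared sequence, and so are their differences between sorts. Sort 3 libraries had the lowest depth of their subsets, and they were also highest in each subset for the summed markers of neutrophils (37.5, 74.997 and 60.5 CPM in cDC1, cDC2 and pDC), monocytes (27.6, 50.7 and 63.1 CPM), NK cells (159, 159.7 and 57.6 CPM) and erythroid cells (54.1, 63.5 and 59.97 CPM). The summed macrophage markers were instead highest in replicate 1 of cDC1 (216 CPM) and of cDC2 (350 CPM), and in replicate 3 of pDC (186 CPM). In cDC1 replicate 3, Klrk1 alone held 132 CPM of the NK cell sum, and Ncr1 was at 1.49 CPM. The part of depth and of these cells in the differences was not tested.

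The other genes of these pathways were listed with earlier results of these data known and were counted in the same fit, to be read against the same background shares of 24.3% higher and 24.4% lower in pDC against cDC1, 22.5% and 23.3% against cDC2, and 12.7% and 11.7% in cDC2 against cDC1. Of 22 other enzymes of glycolysis and gluconeogenesis, 15 were tested, and in pDC 5 were higher and 5 lower than in cDC1, and 7 higher and 2 lower than in cDC2. Galm, the mutarotase that interconverts glucose anomers, was at 7.39, 6.46 and 10.8 CPM in cDC1, 10.7, 8.54 and 12.1 CPM in cDC2 and 0.424, 0.101 and 0.177 CPM in pDC. All pDC libraries were far under the others, with a log2 fold change of -4.96 ± 0.44 against cDC1 (adjusted p = 1.11e-05). Of 13 other TCA cycle and linked genes tested, 1 was higher and 4 lower in pDC against cDC1, and 5 higher and 2 lower against cDC2. Of 7 other pentose phosphate genes tested, 3 were higher and 3 lower in pDC against cDC1, and 2 higher and 2 lower against cDC2. Among 5 regulators of pyruvate dehydrogenase tested, 1 was higher and none lower in pDC in both comparisons.

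Transport of glucose, lactate and pyruvate was represented by 13 genes, of which 6 (46.2%) were higher and 4 (30.8%) lower in pDC against cDC1, 3 and 4 against cDC2, and 4 higher and 2 lower in cDC2 against cDC1. Slc2a3, the high-affinity glucose transporter GLUT3, was at 28.7, 22.4 and 28.3 CPM in cDC1, 166, 171 and 183 CPM in cDC2 and 174, 164 and 170.3 CPM in pDC. It separated cDC1 from both other subsets, with a log2 fold change of 2.71 ± 0.12 in cDC2 against cDC1 (adjusted p = 1.06e-06). Slc16a7, a monocarboxylate transporter, was likewise lowest in cDC1, with 1.75, 1.08 and 2.64 CPM in cDC1, 8.99, 8.68 and 13.3 CPM in cDC2 and 13.7, 13.6 and 17.4 CPM in pDC (2.53 ± 0.33 in cDC2 against cDC1, adjusted p = 0.000379).

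Of 20 regulators tested, among them Hif1a and Myc, 7 (35.0%) were higher and 2 lower in pDC against cDC1, likewise 7 and 2 against cDC2, where the genes were partly others, and 2 were higher and 1 lower in cDC2 against cDC1. Egln3, a prolyl hydroxylase that marks hypoxia-inducible factors for degradation, was at 9.02, 8.52 and 12.8 CPM in pDC and at most 0.745 CPM in other libraries, with a log2 fold change of 4.65 ± 0.51 against cDC1 (adjusted p = 4.71e-05). Of 13 hypoxia response genes outside glycolysis, 3 were higher and 4 lower in pDC against cDC1, 1 and 2 against cDC2, and 1 and 2 in cDC2 against cDC1. Ddit4, an inhibitor of mTOR signalling, was at 5.21, 7.59 and 1.69 CPM in cDC1, 44.2, 84.9 and 24.3 CPM in cDC2 and 25.6, 37.1 and 26.1 CPM in pDC. It varied by sort in each subset and was still lowest in cDC1, with a log2 fold change of 3.37 ± 0.55 in cDC2 against cDC1 (adjusted p = 0.00157).

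Promoters of glycolytic genes are known for hypoxia response elements. ACGTG, a form of the core of these elements, was searched on both strands in RefSeq promoter windows, and no other form of the core was searched. The windows ran from 250 bases before to 50 after the start (GRCm38.p6), and 70 windows matched 47 of the 48 genes by symbol. ACGTG lay in the windows of 18 of these 47 genes (38.3%), beside 29.1% of the 9381 tested genes with a window, and in 37.1% of the member windows beside 25.1% of the 11949 windows of tested genes and 19.6% of all 32851. The E-box CACGTG, which contains ACGTG, was held by 8.51% of the genes beside 11.7% of tested genes, and the GC box GGGCGG by 76.6% beside 68.0%. Among the enzyme genes lower in pDC against cDC1, 9 of 27 held ACGTG, as did 3 of the 8 that were higher and 6 of the 11 that did not pass and had a window. Against cDC2 the letters were held by 5 of 16 lower and 2 of 6 higher genes, and in cDC2 against cDC1 by 7 of 16 lower and 2 of 8 higher genes.

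The matches are shown for genes of the lower set on which the results above turn, 5′ to 3′ on the strand of the gene, with ACGTG or its reverse complement in capitals and 10 bases on either side. They start 52 bases upstream of an annotated start for Hk2 (chr6:82774492-82774516, minus strand), 156 for Hk3 (chr13:55021527-55021551, minus), 52 for Pfkfb3 (chr2:11502128-11502152, minus), 150 for Pgk1 (chrX:106186940-106186964, plus), 114 for Pgam1 (chr19:41911747-41911771, plus) and 144 for Ldha (chr7:46845650-46845674, plus), and those of Pfkfb3 and Ldha are E-boxes.
Hk2: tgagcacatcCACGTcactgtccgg
Hk3: tacattttgaCACGTtgcctagttc
Pfkfb3: ccttctctccACGTGaaagggggct
Pgk1: gtcgtgcaggACGTGacaaatggaa
Pgam1: ctccttgcttACGTGcgctccgtga
Ldha: gtcgcagcacACGTGgagccactct
Not every match is shown, as the windows of Hk2, Pfkfb3, Pgk1 and Ldha held others. The genes shown were all lower in pDC than in cDC1, and a match of 5 letters is a description of these windows only. In that comparison ACGTG was no more frequent among lower genes (33.3%) than among higher ones (37.5%) or those that did not pass (54.5%).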

How the data were processed

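RNA from 9 libraries was read from one end over 75 bases after stranded polyA library preparation. The authors deposited raw counts per gene, without normalization. The submitters' processing notes name STAR, SAMtools, MultiQC and featureCounts and the build mm10, without versions, and strand use in counting was not given in the sources used here.

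The counts were fitted with edgeR 4.0.16 under R 4.3.3 (filterByExpr with a minimum count of 10, TMM, all 9 libraries, subset as the only term, quasi-likelihood test, Benjamini-Hochberg adjustment over 13819 genes, threshold 0.05). The fit was tested on simulated data. The genes and lists were chosen with earlier results of these data known. Values per library were given for enzyme genes past the threshold that changed by at least 1 (log2) and had at least 5 CPM in the higher subset, for isoenzymes and for Gapdh. Named among the other genes were the 3 with the largest called changes per comparison and at least 100 counts. Other named enzyme genes are given by their tests.

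Replicate numbers carry shared date codes, the source of the pairing: deviations of same-numbered libraries from their subset means correlated at 0.266 to 0.543 (9 pairs). Libraries of the same subset differed beyond sampling noise. Exon lengths, shared windows and overlaps come from GENCODE M21, in which 95.99% of genes matched. Shares weight the counts by exon length, which sets their value. P-values measure the spread between pools. Alternatives used DESeq2 1.42.0, limma 3.58.1, other scalings, filters and thresholds, the replicate block and leaving out each library.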

Additional observations from a re-analysis of the deposited data

How the results depend on the processing

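No called gene changed direction in any of the 18 alternative fits, and 32 of 35 calls in pDC against cDC1, 19 of 22 in pDC against cDC2 and 16 of 24 in cDC2 against cDC1 passed in every one of them that tested the gene. Eno2 was not tested in the fit on genes with at least 10 counts in every library. Requiring a log2 fold change of at least 1 left 3 higher and 11 lower genes in pDC against cDC1, 3 and 7 in pDC against cDC2, and 3 and 6 in cDC2 against cDC1. At an adjusted p of 0.01, 7 genes were lower in cDC2 against cDC1 and 3 differed between sorts. Leaving out 1 library at a time gave 7 to 10 higher and 25 to 29 lower genes in pDC against cDC1, 4 to 7 and 15 to 20 in pDC against cDC2, and 7 to 8 and 9 to 18 in cDC2 against cDC1, where the 9 came without cDC2 replicate 1, and 34 to 39 genes differed among the subsets. The replicate block gave 8 higher and 28 lower, 6 and 20, and 9 and 18 in these comparisons and 38 genes differing among subsets, and it changed no call in them other than those given for Pdk3, Dld, Pgls, Cs, Sucla2 and Mdh1. Scaling by library size alone moved the median of all genes to 0.11 in pDC against cDC1 and 0.14 in cDC2 against cDC1, and it left 8 higher and 14 lower enzyme genes in the latter, and the median of enzyme genes there turned from -0.06 to 0.05. Depth limits Fbp1, Eno2 and Pfkfb1, and shared sequence limits Gapdh, Pgk1, Eno1 and Pgam1.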
